A study of Mus musculus with 9 samples.

Results

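The 28 genes described here make cholesterol, control its synthesis or supply and move lipids, and they were picked by name for their place in the pathway at a time when results of these data were already known. They are 8 genes of the mevalonate arm (acetyl-CoA to squalene), 10 of the sterol arm (squalene to cholesterol), 5 of the SREBP control system, and 5 that synthesise fatty acids or carry and export sterols. All 28 had a row among the 41128 genes counted, and all 28 passed the filter on low counts, which kept 15271 genes. Expression was measured by RNA-seq in 9 libraries of dorsal telencephalon, the part of the forebrain that gives rise to cerebral cortex and hippocampus, from newborn mice (P0) of strain B6:129SF2/J. The 3 groups were TCF4 knockouts (KO), TCF4 heterozygotes (Het) and wildtype (WT), with 3 libraries each. Tcf4 encodes a basic helix-loop-helix transcription factor that binds E-box sequences. The sources used here do not give which part of Tcf4 was deleted, or whether a Cre was used. The labels do not say if each library is a single pup or how litters were spread, and the p-values below therefore measure only how far these samples differ, which may be technical.

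Cholesterol hardly crosses the blood-brain barrier, so the brain makes its own. Acetyl-CoA is built up to mevalonate and then to isoprenoids and squalene, which is closed to a sterol ring and trimmed to cholesterol. When sterols run low, SCAP carries SREBP proteins from the endoplasmic reticulum to the Golgi for cleavage, and the released fragments switch on nearly every gene of the pathway. INSIG proteins hold SCAP back when sterols are plentiful. In postnatal brain, astrocytes secrete cholesterol on particles that carry apolipoprotein E, and oligodendrocytes make large amounts of it for myelin.

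The sequences upstream of these genes are shown first because most of the 28 genes moved in one direction, and because Tcf4 and the SREBP proteins bind short DNA motifs. RefSeq promoter windows (build GRCm38.p6) run from 250 bases before to 50 bases after a start site, and 23 of the 28 genes had at least 1. The 6 shown have 1 window each and were picked with the results known. Idi1, Msmo1 and Insig1 were picked for being higher in KO than in Het. Hsd17b7 and Tm7sf2 were picked for their large falls in both mutant genotypes. Hmgcs1 was picked for its match to the core of a sterol regulatory element, not for its expression. Capitals mark CANNTG (the E-box), CCAAT on either strand (ATTGG on the minus strand), and TCACNCCAC (the core of a sterol regulatory element).
Hmgcs1, chr13:119690101-119690400, plus strand: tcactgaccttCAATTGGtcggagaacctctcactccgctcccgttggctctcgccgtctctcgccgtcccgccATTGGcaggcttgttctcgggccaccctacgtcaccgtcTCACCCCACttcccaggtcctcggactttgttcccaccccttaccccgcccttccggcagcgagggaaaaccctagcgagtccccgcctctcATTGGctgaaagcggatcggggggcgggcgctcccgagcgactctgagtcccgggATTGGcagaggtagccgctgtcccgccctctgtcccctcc
Idi1, chr13:8885356-8885655, plus strand: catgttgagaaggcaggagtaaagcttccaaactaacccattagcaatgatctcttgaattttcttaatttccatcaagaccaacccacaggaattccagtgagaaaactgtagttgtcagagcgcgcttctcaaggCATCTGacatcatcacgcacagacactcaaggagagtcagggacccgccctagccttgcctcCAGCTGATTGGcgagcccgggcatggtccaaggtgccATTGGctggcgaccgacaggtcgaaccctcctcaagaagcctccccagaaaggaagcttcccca
Tm7sf2, chr19:6067801-6068100, minus strand: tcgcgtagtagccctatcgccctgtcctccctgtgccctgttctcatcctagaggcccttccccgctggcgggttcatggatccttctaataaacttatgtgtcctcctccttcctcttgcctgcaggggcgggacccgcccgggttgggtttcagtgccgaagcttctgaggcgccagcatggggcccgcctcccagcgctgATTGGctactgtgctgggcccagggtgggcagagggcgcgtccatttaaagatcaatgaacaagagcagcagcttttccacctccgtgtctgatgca
Msmo1, chr8:64733529-64733828, minus strand: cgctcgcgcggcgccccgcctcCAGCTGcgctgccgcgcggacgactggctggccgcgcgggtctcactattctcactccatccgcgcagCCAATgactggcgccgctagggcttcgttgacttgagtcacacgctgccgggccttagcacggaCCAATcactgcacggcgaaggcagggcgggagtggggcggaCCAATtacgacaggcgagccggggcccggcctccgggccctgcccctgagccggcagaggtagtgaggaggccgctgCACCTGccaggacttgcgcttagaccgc
Hsd17b7, chr1:169969156-169969455, minus strand: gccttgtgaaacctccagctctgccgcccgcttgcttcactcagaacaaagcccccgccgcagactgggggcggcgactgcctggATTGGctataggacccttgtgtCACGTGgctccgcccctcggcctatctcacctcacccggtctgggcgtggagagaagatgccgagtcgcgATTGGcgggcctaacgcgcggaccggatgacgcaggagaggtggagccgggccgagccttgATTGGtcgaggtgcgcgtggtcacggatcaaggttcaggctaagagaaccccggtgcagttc
Insig1, chr5:28071162-28071461, plus strand: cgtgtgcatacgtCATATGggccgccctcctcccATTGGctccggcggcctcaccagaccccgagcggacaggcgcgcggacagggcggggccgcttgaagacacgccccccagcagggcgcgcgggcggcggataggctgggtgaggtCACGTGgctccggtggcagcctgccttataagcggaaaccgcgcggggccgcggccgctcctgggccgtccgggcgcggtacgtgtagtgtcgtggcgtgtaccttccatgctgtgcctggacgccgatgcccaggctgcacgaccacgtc

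CCAAT, searched on both strands, was in a window of 19 of the 23 genes (82.6%), against 41.1% of the 27025 genes in the RefSeq table. GGGCGG, the GC box bound by Sp1-type factors, was in 20 of 23 (87%) against 38.2%. CANNTG was in 19 of 23 (82.6%) against 75% of all genes, and CCAAT and CANNTG overlap in the Hmgcs1 window. Among E-box variants, each of them a form of the motif above, the palindrome CACGTG was in 6 of 23 (26.1%) against 8.09%. The variant CAGGTG was in 7 of the genes (30.4%) against 22.6% of all genes. The variant CAGCTG was in 4 of the genes (17.4%) against 18.3% of all genes. TCACNCCAC matched 1 gene of the 23, Hmgcs1 (4.35% against 1.44%), at 137 bases before the start site. These shares are descriptions of letters in windows of 300 bases, without a test, and 6 of the 23 genes have more than 1 window. The 27025 genes were not limited to the 15271 that passed the filter on low counts, so a contrast with expressed genes was not made.

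Total counts were 26355671 to 29445788 in KO libraries, 24008445 to 29398411 in Het libraries and 22291940 to 23813314 in WT libraries. Tcf4, the targeted gene, was counted at 638.2, 633.2 and 611 CPM (counts scaled to library size) in KO, at 821.8, 651.7 and 719.4 CPM in Het, and at 712.2, 728.2 and 583.8 CPM in WT, so counts over the whole gene do not check the labels. All 12 markers of dorsal telencephalon were detected in every library, with Emx2 lowest at 260 counts. The WT libraries stood apart from the other 6 on the first principal component, which held 64.1% of the variance. KO and Het libraries stood apart on the second (10.7%), at -21.7 to -14.6 in KO and 20.4 to 24.9 in Het. WT lay between them, at -8.63 to -0.186. Processed pseudogenes took 0.0804% to 0.0939% of counts in KO, 0.0917% to 0.10% in Het and 0.253% to 0.313% in WT. Judged by Xist (2730 counts) and Ddx3y (2 counts), KO replicate 3 was of the other sex from the remaining libraries, which held at most 3 Xist and at least 794 Ddx3y counts. The cause of the distance between WT and the other libraries was not tested, and it cannot be told apart from genotype in the comparisons with WT. The cause of the distance between KO and Het libraries was not tested either, and it cannot be told apart from genotype in KO against Het.

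In both mutant genotypes most genes of cholesterol synthesis were lower than in WT. In KO against WT, 19 of the 28 genes were lower (67.9%), 1 was higher and 8 did not pass an adjusted p of 0.05. Over all 15271 genes tested, 26.3% were lower and 26.5% higher in KO, 52.8% in all. In Het against WT, 21 of the 28 were lower (75%), 0 were higher and 7 did not pass, against 23.4% lower and 22.5% higher over all genes, 45.9% in all. At an unadjusted p under 0.05, 1 gene (Insig2) was higher in Het, and DESeq2 with adjustment also called 0. The median log2 fold change of the 28 was -0.30 in KO (0.01 over all genes) and -0.41 in Het (0.01 over all genes). Most of the differences were modest, and 6 of the 28 in KO and 8 in Het were lower by at least 1.5-fold. At that fold, 1770 of all 15271 genes were lower in KO and 1371 in Het, a smaller share than among the 28 in each. The comparisons of KO and Het with WT share the WT libraries, so they are not independent. Adjusted p-values here and below are from edgeR's quasi-likelihood test over all tested genes, with Benjamini-Hochberg adjustment.

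**Figure D1:**
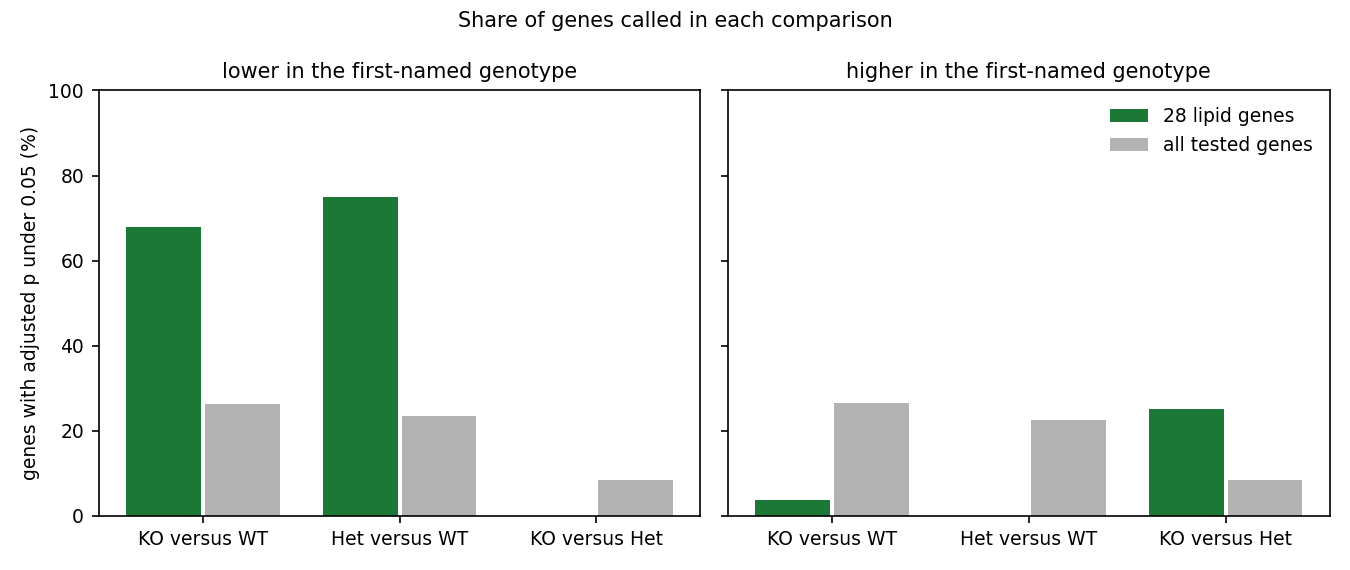
Percentage of genes with an adjusted p under 0.05 in each comparison, lower (left panel) or higher (right panel) in the first-named genotype, for the 28 lipid genes (green) and all 15271 tested genes (grey). Of the 28 genes, 67.9% were lower in KO than in WT and 75% were lower in Het than in WT, against 26.3% and 23.4% of all genes.

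The same picture was seen in the libraries themselves. All 3 KO libraries were below all 3 WT libraries for 20 of the 28 genes, against 30.8% of all genes, and above them for 2, against 31.9%. All 3 Het libraries lay below all 3 WT libraries for 20 genes and above them for 1, against 26.8% of all genes in each direction. The summed level of the 28 genes was 5349 to 5450 CPM in KO, 4994 to 5272 CPM in Het and 6486 to 6817 CPM in WT. In these bulk samples, fewer cells of a type and less RNA per cell cannot be told apart.

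**Figure D2:**
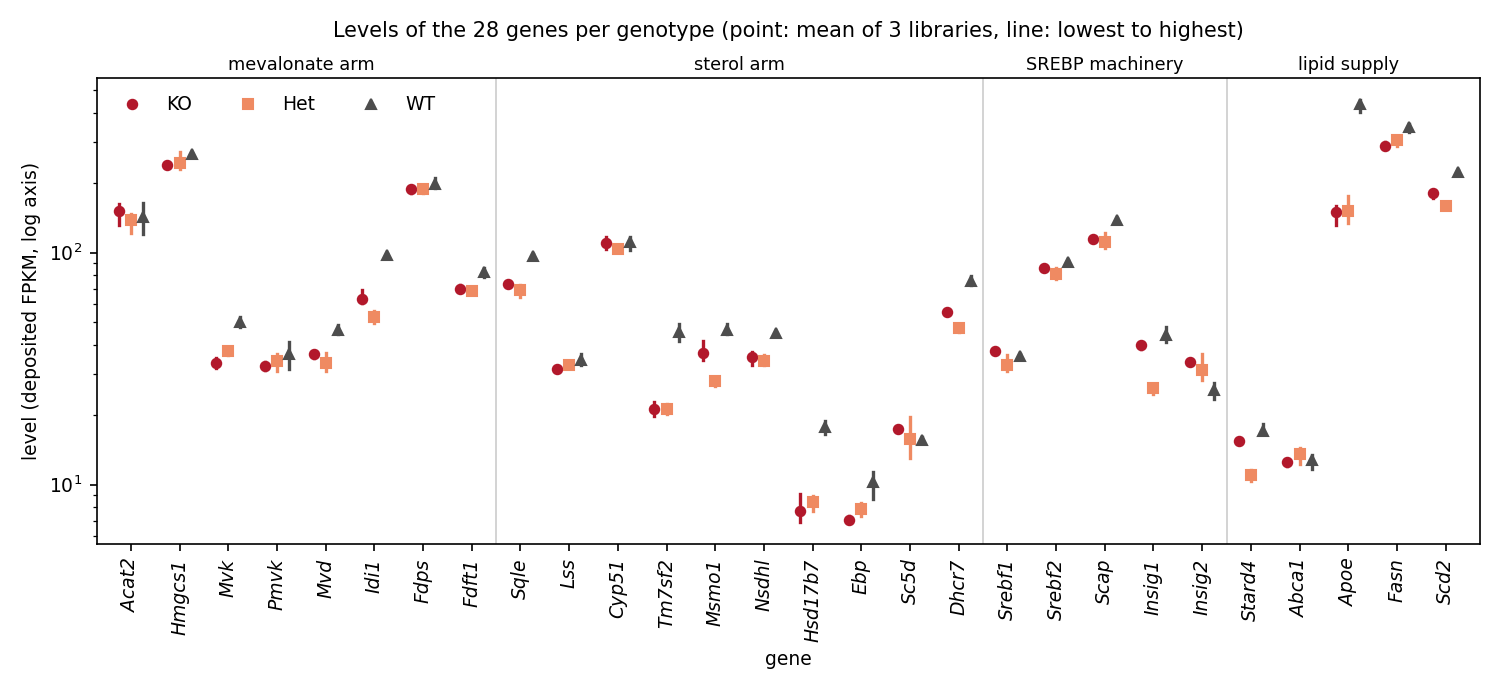
Deposited FPKM (log axis) of the 28 genes in KO (circles), Het (squares) and WT (triangles), as the mean of 3 libraries with a line from the lowest to the highest library. Group means run from 7.02 FPKM (Ebp in KO) to 437.7 FPKM (Apoe in WT), and the Apoe mean lies near 150 FPKM in KO (149) and Het (151.6).

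Levels between genes are given in the authors' FPKM, whose gene lengths can differ from the annotation used here. Scap, with 7443 bases of exons in that annotation, was at 123.3 CPM and 138.8 FPKM in WT. Srebf2, with 7184 bases, was at 462.4 CPM and 90.8 FPKM in WT. The order of genes below therefore depends in part on the authors' lengths. In WT, Apoe averaged 437.7 FPKM, Fasn 347.9, Hmgcs1 264.8, Scd2 221.3 and Fdps 198.2 FPKM. At the other end were Abca1 at 12.8 FPKM and Ebp at 10.3 FPKM. Hsd17b7, like Ebp a late step of the sterol arm, averaged 17.7 FPKM in WT. Apoe was at 149 FPKM in KO and 151.6 FPKM in Het, below Hmgcs1 (237.8 FPKM in KO and 244.1 FPKM in Het) and Fasn (287.3 FPKM in KO and 304.9 FPKM in Het).

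In the mevalonate arm, 5 of 8 genes were lower in KO and 5 of 8 lower in Het, and 0 were higher in either. Lower calls were 62.5% of the arm in each, against 26.3% (KO) and 23.4% (Het) of all genes. The genes not called in KO were Acat2, Pmvk and Fdps, and the same 3 were not called in Het. Idi1 (mm10 chromosome 13, 8885501 to 8892451, plus strand), the isomerase that makes dimethylallyl diphosphate for isoprenoid chains, had 71.4, 71.2 and 78.8 CPM in KO, 61.2, 65.2 and 56.8 CPM in Het, and 115.2, 119.7 and 116.5 CPM in WT. The 3 genotypes did not overlap, with Het lowest. The log2 fold change was -0.67 in KO against WT (SE 0.06, adjusted p = 1.0e-07) and -0.94 in Het against WT (SE 0.06, adjusted p = 3.4e-09). Of the 31-base words of Idi1 transcripts, 27.1% also occur in other genes, so its reads could be split with copies, of which Gm13502 had 1 to 5 counts per library.

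Mvk, mevalonate kinase (chromosome 5, 114444269 to 114460591, plus strand), had 45.8, 41.1 and 42.2 CPM in KO, 46.1, 50.3 and 47.5 CPM in Het, and 63.9, 63.8 and 69.9 CPM in WT. Here the KO libraries were the lowest, without overlap with Het, yet the KO against Het difference did not pass (-0.16, SE 0.07, adjusted p = 0.13). Mvk was 1.53-fold lower in KO than in WT (adjusted p = 1.1e-06) and 1.37-fold lower in Het than in WT (adjusted p = 4.0e-05). Mvd, the decarboxylase that forms isopentenyl diphosphate, had 66.8, 61.8 and 63.1 CPM in KO, 53.6, 56.3 and 63.8 CPM in Het, and 79.5, 84.2 and 87.7 CPM in WT. All 6 mutant libraries were below the lowest WT library, with log2 fold changes of -0.39 in KO (adjusted p = 1.3e-04) and -0.53 in Het (adjusted p = 9.1e-06).

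Hmgcs1, the synthase that makes HMG-CoA, had the highest FPKM of the arm and a small difference. It was at 765.5, 756.2 and 773.5 CPM in KO, at 744.6, 867.8 and 722.3 CPM in Het, and at 868.3, 887.6 and 866.3 CPM in WT. KO libraries did not overlap WT (log2 fold change -0.19, SE 0.06, adjusted p = 0.013), while Het replicate 2 reached the WT range. The Het call (-0.17, SE 0.06, adjusted p = 0.031) was lost without Het replicate 1 or 3 or any WT library, with adjusted p of 0.14, 0.15, 0.056, 0.085 and 0.063. Upper-quartile factors, library totals alone, limma with either pseudocount and a fit of only the genotypes compared ended it too, making 10 of 19 alternatives. Fdft1, squalene synthase, was lower by log2 fold changes of -0.28 in KO (adjusted p = 3.2e-04) and -0.34 in Het (adjusted p = 9.4e-05), but 31.9% of its words are shared, mostly with Ctsb, which overlaps it on the opposite strand and had 8369 to 9536 counts in KO, 8438 to 10165 in Het and 7919 to 8725 in WT.

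Fdps, farnesyl diphosphate synthase, was at 218.8 to 238 CPM in KO, 219.7 to 237.9 CPM in Het and 235.9 to 267.5 CPM in WT, and did not pass in KO (-0.12, adjusted p = 0.098) or in Het (-0.13, adjusted p = 0.074). Without WT replicate 1 it passed in both, with adjusted p of 0.033 in KO and 0.03 in Het. Pmvk, phosphomevalonate kinase, was at -0.22 in KO (adjusted p = 0.053) and -0.15 in Het (adjusted p = 0.18), and passed in both without WT replicate 2 (adjusted p = 0.0088 in KO and 0.037 in Het). In KO it passed under 7 of 19 alternatives (adjusted p from 0.0088 to 0.045). Acat2, the thiolase at the head of the path, had a log2 fold change of 0.05 in KO, with a 95% interval of -0.28 to 0.38, and of -0.10 in Het, with -0.43 to 0.23. Its 3 groups overlapped, and 43.7% of its words are shared, with Acat3 first, which had 3 to 29 counts per library.

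**Figure D3:**
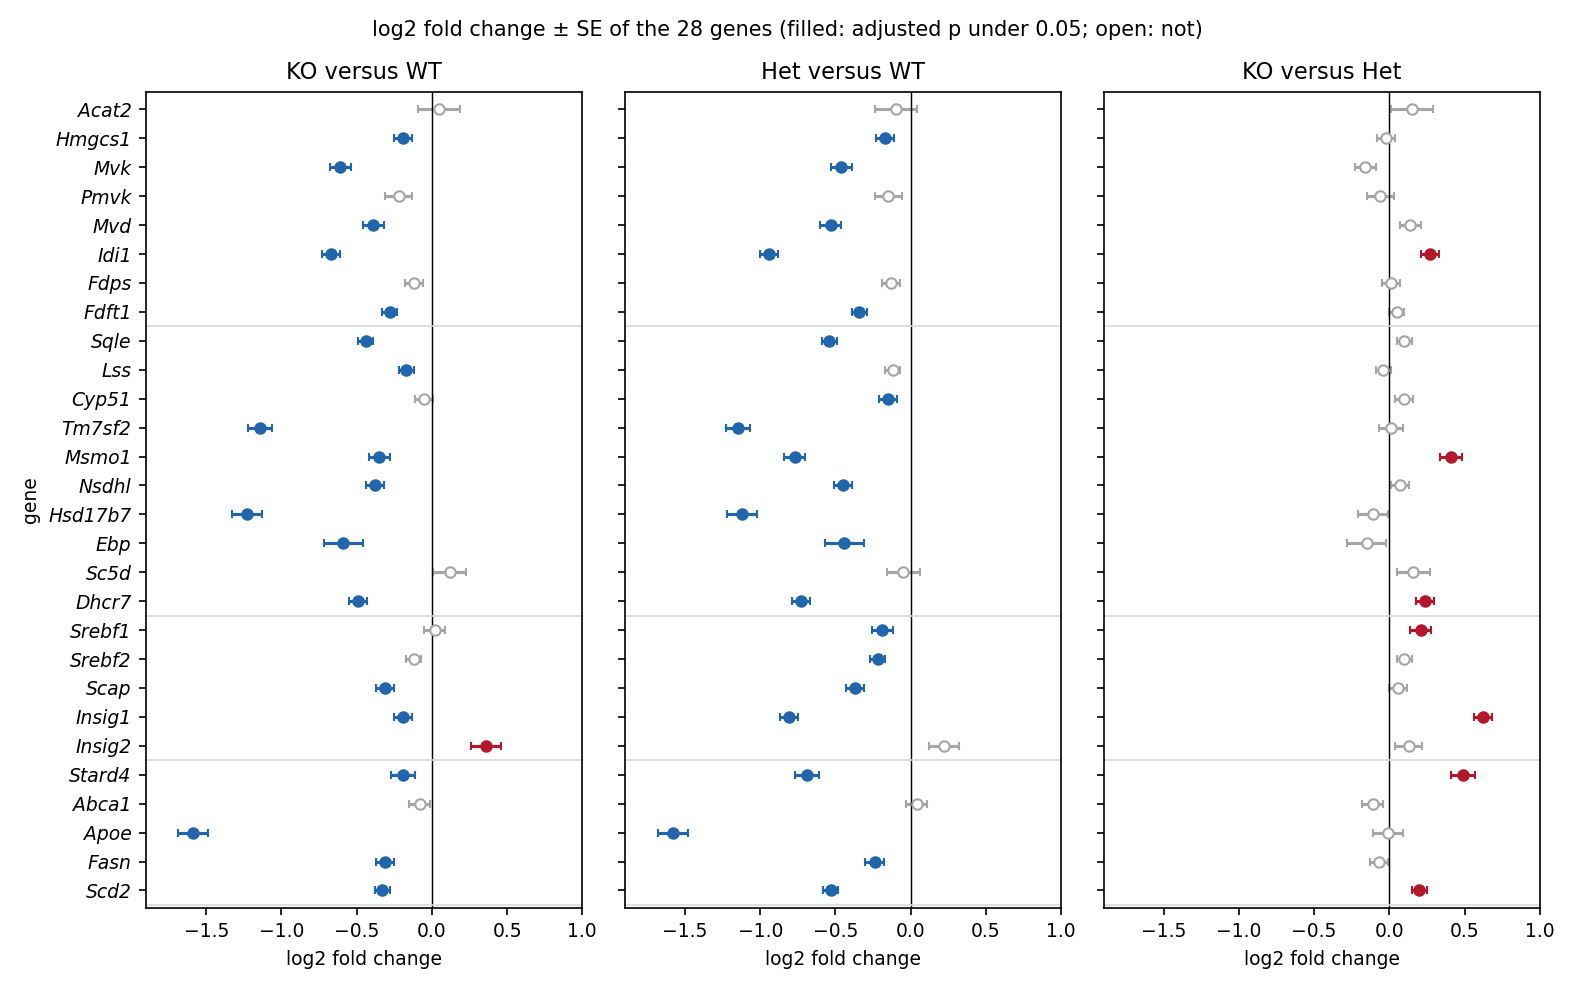
Log2 fold change with its standard error for the 28 genes, in the order of the pathway, for KO against WT, Het against WT and KO against Het. Filled points passed an adjusted p of 0.05 (blue lower, red higher in the first-named genotype) and open points did not. Apoe, Hsd17b7 and Tm7sf2 lie farthest to the left against WT, and no filled point lies left of 0 in KO against Het.

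In the sterol arm, 8 of 10 genes were lower in KO and 8 of 10 in Het (80% in each), and 0 were higher. Over all genes, 26.3% were lower in KO and 23.4% in Het. Hsd17b7 (chromosome 1, 169949535 to 169969241, minus strand) and Tm7sf2 (chromosome 19, 6062821 to 6068373, minus strand) fell the most. Hsd17b7, the 3-ketosteroid reductase that acts after removal of the C4 methyl groups, had 13.5, 12.9 and 16.6 CPM in KO, 14.1, 15.9 and 16.3 CPM in Het, and 33, 36.3 and 31.7 CPM in WT. It was 2.35-fold lower in KO (SE 0.10 on the log2 scale, adjusted p = 2.3e-08) and 2.17-fold lower in Het (SE 0.10, adjusted p = 1.2e-07). Tm7sf2, one of the sterol C14 reductases, had 20.7, 19.4 and 21.7 CPM in KO, 19.5, 20.5 and 21.4 CPM in Het, and 44.7, 42.3 and 49.4 CPM in WT, and was 2.2-fold lower in KO and 2.22-fold lower in Het. Both genes had KO and Het libraries in 1 range and WT far above, and neither passed the test of KO against Het. That log2 fold change was -0.11 for Hsd17b7 (95% interval -0.35 to 0.13, adjusted p = 0.51) and 0.01 for Tm7sf2 (95% interval -0.18 to 0.21, adjusted p = 0.94). For Tm7sf2 the nearby gene Vps51, which overlaps it on the same strand, holds most of the 13.3% of its words that are shared, and reads could be split between them.

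Dhcr7, the 7-dehydrocholesterol reductase that makes cholesterol at the end of the Kandutsch-Russell branch and is mutated in Smith-Lemli-Opitz syndrome in humans, had 69.2, 70.1 and 66.9 CPM in KO, 59.7, 56.6 and 58.1 CPM in Het, and 91.1, 97.1 and 100.8 CPM in WT. The groups did not overlap, and Het was lowest. It was 1.4-fold lower in KO than in WT (adjusted p = 1.6e-06) and 1.66-fold lower in Het than in WT (adjusted p = 2.8e-08). Msmo1 (chromosome 8, 64718139 to 64733792, minus strand), the sterol C4 methyl oxidase, had 54, 55.4 and 63.1 CPM in KO, 44.2, 44.9 and 40.7 CPM in Het, and 70.1, 78.7 and 71.7 CPM in WT. Again the groups did not overlap, with log2 fold changes of -0.35 in KO (adjusted p = 5.8e-04) and -0.77 in Het (adjusted p = 3.8e-07).

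Sqle, the squalene epoxidase that opens the sterol arm, had 205.1, 201.5 and 201.2 CPM in KO, 176.7, 192.8 and 197.5 CPM in Het, and 268.9, 277.2 and 279.9 CPM in WT. KO and Het libraries were apart by little and both lay well under WT, at log2 fold changes of -0.44 in KO (adjusted p = 2.9e-06) and -0.54 in Het (adjusted p = 5.0e-07). Nsdhl, which works beside Msmo1 in removing C4 methyl groups and lies on chromosome X, was at 52 to 58.2 CPM in KO, 50.7 to 56.8 CPM in Het and 71.8 to 73.3 CPM in WT. It was 1.3-fold lower in KO and 1.37-fold lower in Het, and without KO replicate 3, the library of the other sex, the KO value was -0.40 on the log2 scale (adjusted p = 0.00032). Ebp, the sterol isomerase and also on chromosome X, was at 6.67 to 7.27 CPM in KO, 7.13 to 8.26 CPM in Het and 8.63 to 11.5 CPM in WT. Its log2 fold change was -0.59 in KO (SE 0.13, adjusted p = 9.5e-04) and -0.44 in Het (SE 0.13, adjusted p = 0.0093), and the Het call did not hold when WT replicate 3 was left out (-0.36, adjusted p = 0.055). Without KO replicate 3 the KO value was -0.56 (adjusted p = 0.005).

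Lss, lanosterol synthase, was lower in KO by a log2 fold change of -0.17 (adjusted p = 0.012), a call that leaving out WT replicate 3 ended (-0.12, adjusted p = 0.078), as did limma with either pseudocount, and it did not pass in Het (-0.12, adjusted p = 0.062). Cyp51, the lanosterol demethylase, did not pass in KO (-0.05, adjusted p = 0.47). In Het it passed at -0.15 (adjusted p = 0.043), but the call was lost under 14 of the 19 alternatives, with adjusted p from 0.058 to 0.21. These include leaving out any 1 of the Het libraries, WT replicate 1 or 3, or KO replicate 1 or 2. Sc5d, the C5 desaturase ahead of Dhcr7, was at 33.1, 34.2 and 34.4 CPM in KO, 37.7, 25.5 and 27.8 CPM in Het, and 29.9, 32.6 and 31.2 CPM in WT. Het replicate 1 lay above every other library of the gene, and without it Sc5d was lower in Het than in WT (-0.22, adjusted p = 0.036) and higher in KO than in Het (0.34, adjusted p = 0.0069). With all libraries neither passed.

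**Figure D4:**
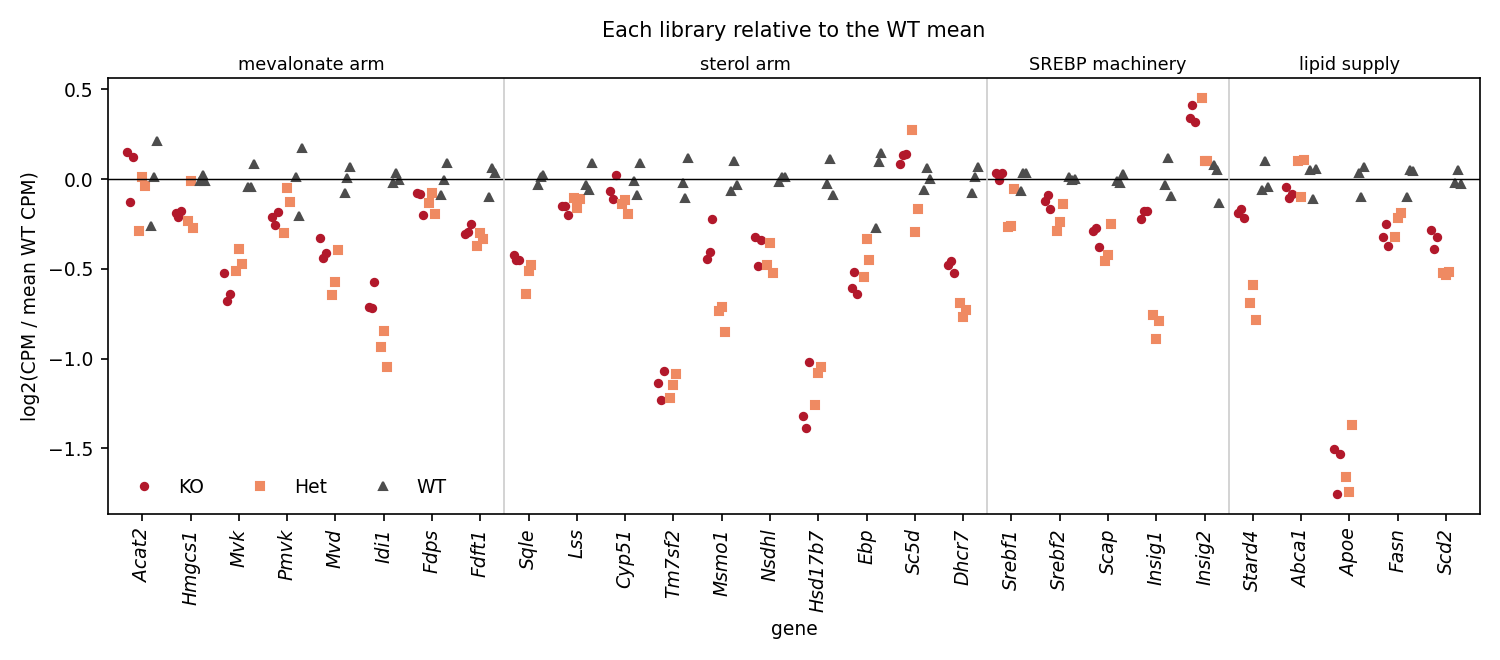
Each library's CPM of the 28 genes as log2 of its ratio to the mean WT CPM of that gene (KO circles, Het squares, WT triangles), so that 0 is the WT mean. Most KO and Het points lie below 0, Apoe, Hsd17b7 and Tm7sf2 lie lowest, and Insig2 lies above 0 in every KO and Het library.

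Of the SREBP control genes, 2 of 5 were lower and 1 was higher in KO, and 4 of 5 were lower and 0 higher in Het. Lower calls were 40% in KO and 80% in Het, against 26.3% and 23.4% of all genes. The higher call was 20% of these genes in KO, against 26.5% of all genes, on a list of only 5. Scap, the escort protein, was 1.24-fold lower in KO (adjusted p = 2.0e-04) and 1.3-fold lower in Het (adjusted p = 5.7e-05), although 11.3% of its words are shared. Srebf2, the main activator of cholesterol genes, was at 412.1 to 435.4 CPM in KO, 378 to 419.6 CPM in Het and 460.3 to 465.1 CPM in WT. KO libraries were all below WT without passing (-0.12, SE 0.05, adjusted p = 0.058), though 5 of 19 alternatives passed (adjusted p from 0.027 to 0.045), DESeq2 among them, and Het passed at -0.22 (SE 0.05, adjusted p = 0.0026). Srebf1, which drives fatty acid genes, was at 55.1, 53.7 and 55.2 CPM in KO, 44.8, 44.9 and 51.9 CPM in Het, and 51.5, 55.1 and 55.1 CPM in WT. KO and WT overlapped, and the call in Het (-0.19, adjusted p = 0.033) was lost without Het replicate 1 or 2 or WT replicate 2 or 3 (adjusted p of 0.14, 0.16, 0.094 and 0.1). It was also lost with upper-quartile factors, library totals alone, limma with either pseudocount and only the genotypes compared, 9 of 19 alternatives in all.

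In KO the 2 Insig genes moved in opposite directions. Insig1 (chromosome 5, 28071363 to 28078662, plus strand), itself an SREBP target, had 104.6, 107.9 and 107.7 CPM in KO, 72.1, 65.8 and 70.4 CPM in Het, and 119.3, 132.5 and 114.2 CPM in WT. In Het it was 1.76-fold below WT (-0.81 on the log2 scale, SE 0.06, adjusted p = 1.4e-08). In KO it was 1.14-fold below WT (-0.19, SE 0.06, adjusted p = 0.011), and the KO call failed when WT replicate 2 was left out (-0.13, adjusted p = 0.09) and under limma with either pseudocount. Insig2, its paralogue, was the 1 gene of the 28 called higher in KO, at 25.9, 27.3 and 25.5 CPM in KO, 28, 22 and 22 CPM in Het, and 21.6, 21.2 and 18.7 CPM in WT. All mutant libraries were above the highest WT library, and it passed in KO (0.36, SE 0.10, adjusted p = 0.005) but not in Het (0.22, SE 0.10, adjusted p = 0.068). The Het value passed without Het replicate 2 or 3 (adjusted p = 0.031 and 0.035).

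Of the 5 lipid supply genes, 4 were lower in KO and 4 in Het (80% in each), and 0 were higher. Over all genes, 26.3% were lower in KO and 23.4% in Het. Apoe (chromosome 7, 19696109 to 19699188, minus strand) showed the widest fall of the 28, at 136.3, 114.4 and 133.5 CPM in KO, 122.4, 115.4 and 149.1 CPM in Het, and 394.7, 359.6 and 403.5 CPM in WT. It was 3.01-fold lower in KO (SE 0.10 on the log2 scale, adjusted p = 8.6e-08) and 2.99-fold lower in Het (SE 0.10, adjusted p = 1.6e-07). KO and Het overlapped, and their log2 fold change was -0.01 (95% interval -0.24 to 0.22, adjusted p = 0.96). No Apoe word is shared with another gene. Apoe is made by astrocytes and microglia, and marker genes of both cell types were lower in the same libraries.

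The marker counts below stand against all genes, of which 26.3% were lower and 26.5% higher in KO. In Het, 23.4% of all genes were lower and 22.5% higher. Of 11 astrocyte markers, 8 were lower in KO and 10 in Het, and 0 were higher. Their summed level was 790.3 to 899.7 CPM in KO, 853.6 to 901.5 CPM in Het and 1320.3 to 1447.5 CPM in WT. The 2 most abundant were Slc1a3, the glutamate transporter, and Glul, glutamine synthetase, with log2 fold changes of -0.73 and -0.43 in KO and -0.80 and -0.32 in Het. Of 9 microglia markers, 7 were lower in KO and 7 in Het, with sums of 65.9 to 70.6 CPM in KO, 64.1 to 65.2 CPM in Het and 110.8 to 124.8 CPM in WT. Of 11 oligodendrocyte lineage markers, 10 were lower and 1 higher in KO, and 9 lower and 1 higher in Het, with sums of 240.7 to 273.6 CPM in KO, 240.2 to 246.1 CPM in Het and 432.6 to 467.2 CPM in WT. Olig1, a transcription factor of that lineage, was 2.19-fold lower in KO and 2.34-fold lower in Het, and Cx3cr1, the microglial fractalkine receptor, 2.41-fold lower in KO and 2.4-fold lower in Het. Of 10 markers of striatal neurons, 9 were lower in KO and 10 in Het, and their sums of 65.4 to 68.5 CPM in KO, 61.9 to 76 CPM in Het and 345.7 to 374.3 CPM in WT differed from each other by the largest ratio of the lists. Endothelial and mural markers were higher for 4 of 8 in KO and 6 of 8 in Het, and the others were not called. Their sums were 310.7 to 327.7 CPM in KO, 302.1 to 335.8 CPM in Het and 228.5 to 240.1 CPM in WT. Much of that difference lay in 1 gene, Rgs5, with means of 107.7 CPM in KO, 98.9 CPM in Het and 43.1 CPM in WT. Choroid plexus and meningeal markers were higher for 3 of 8 in KO and 3 of 8 in Het, at 19.4 to 41 CPM in KO, 22.8 to 30.9 CPM in Het and 8.69 to 18.7 CPM in WT. These higher calls were 37.5% of that short list in each, against 26.5% (KO) and 22.5% (Het) of all genes. Blood markers had overlapping sums, at 292 to 368.2 CPM in KO, 209.8 to 306.6 CPM in Het and 189.5 to 362.5 CPM in WT. Of these 6 markers, 1 was higher in KO, and 1 was higher and 2 (Hba-a1 and Alas2) were lower in Het. The higher call was 16.7% of the list in each, below the 26.5% and 22.5% of all genes. The higher one, the alpha globin gene Hba-a2, was 21.4-fold higher in KO and 15.7-fold higher in Het, and 92.6% of its words are shared with Hba-a1, so the split of reads between them is uncertain. Dorsal telencephalic markers summed to 3068.8 to 3110.1 CPM in KO, 2801.2 to 3130.5 CPM in Het and 2297.7 to 2601.6 CPM in WT, with 8 of 12 higher and 2 lower in each mutant genotype. No marker on the astrocyte, microglia or oligodendrocyte list was at 0 in any library. The part of these cell types in the results for Apoe and the synthesis genes was not tested.

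Fasn, fatty acid synthase, had 1071.6, 1129.2 and 1036.3 CPM in KO, 1071.9, 1155.1 and 1174.3 CPM in Het, and 1251.3, 1389.9 and 1381.2 CPM in WT, a fall of 1.24-fold in KO (adjusted p = 1.5e-04) and 1.18-fold in Het (adjusted p = 0.0018). Scd2, the main stearoyl-CoA desaturase of developing brain, had 1010.5, 941.4 and 986.7 CPM in KO, 855.7, 850.3 and 860.6 CPM in Het, and 1213.7, 1275.6 and 1207.3 CPM in WT. The 3 genotypes did not overlap. It was 1.26-fold lower in KO (adjusted p = 1.8e-05) and 1.44-fold lower in Het (adjusted p = 1.8e-07). Stard4 (chromosome 18), a soluble carrier of cholesterol, was at 29.3, 29.8 and 28.8 CPM in KO, 20.7, 22.2 and 19.4 CPM in Het, and 32, 35.9 and 32.4 CPM in WT. It was 1.61-fold lower in Het (adjusted p = 2.1e-06). In KO it passed narrowly (-0.19, SE 0.08, adjusted p = 0.041), and the call was lost without any 1 of the KO libraries, without WT replicate 2 or 3, with upper-quartile factors, library totals alone or no filter, and under limma with either pseudocount (10 of 19 alternatives, adjusted p from 0.053 to 0.19). Abca1, the pump that loads cholesterol onto lipoproteins, did not pass in either, at -0.08 in KO (95% interval -0.24 to 0.09) and 0.04 in Het (-0.12 to 0.20).

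Which mutant genotype is lower was asked by comparing KO with Het. Of the 28 genes, 7 were higher in KO than in Het and 0 were lower, against 8.3% and 8.44% of all genes (16.7% in all), and 21 did not pass. With 1 library left out, 5 to 8 of the 28 were higher, while over all genes 688 to 1273 were higher, against 1267 with all libraries. The lowest all-gene counts were 729 without KO replicate 1, 688 without KO replicate 2 and 787 without Het replicate 2. At an unadjusted p under 0.05, 1 gene (Mvk) was lower in KO, and DESeq2 called 0. The 7 were Idi1, Msmo1, Dhcr7, Srebf1, Insig1, Stard4 and Scd2. All KO libraries were above all Het libraries for 9 of the 28 genes and below them for 1, against 17.1% and 16.3% of all genes. The median log2 fold change was 0.08 (0.00 over all genes).

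Insig1 differed most, being 1.54-fold higher in KO than in Het (0.62 on the log2 scale, SE 0.06, adjusted p = 1.5e-06). Stard4 was 1.41-fold higher (0.49, SE 0.08, adjusted p = 2.5e-04) and Msmo1 1.33-fold higher (0.41, SE 0.07, adjusted p = 9.0e-04). Idi1 was 1.21-fold higher (0.27, SE 0.06, adjusted p = 0.0048) and Dhcr7 1.18-fold higher (0.24, SE 0.06, adjusted p = 0.0066). Scd2 was 1.14-fold higher (0.20, SE 0.05, adjusted p = 0.0089), a call that did not survive leaving out KO replicate 1 (0.17, adjusted p = 0.055). Srebf1 (0.21, SE 0.07, adjusted p = 0.045) lost its call under 16 of 19 alternatives (adjusted p from 0.052 to 0.2), among them any 1 library other than Het replicate 3 left out, all 3 other scalings, the filter at 1 CPM, limma with either pseudocount and only the genotypes compared.

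**Figure D5:**
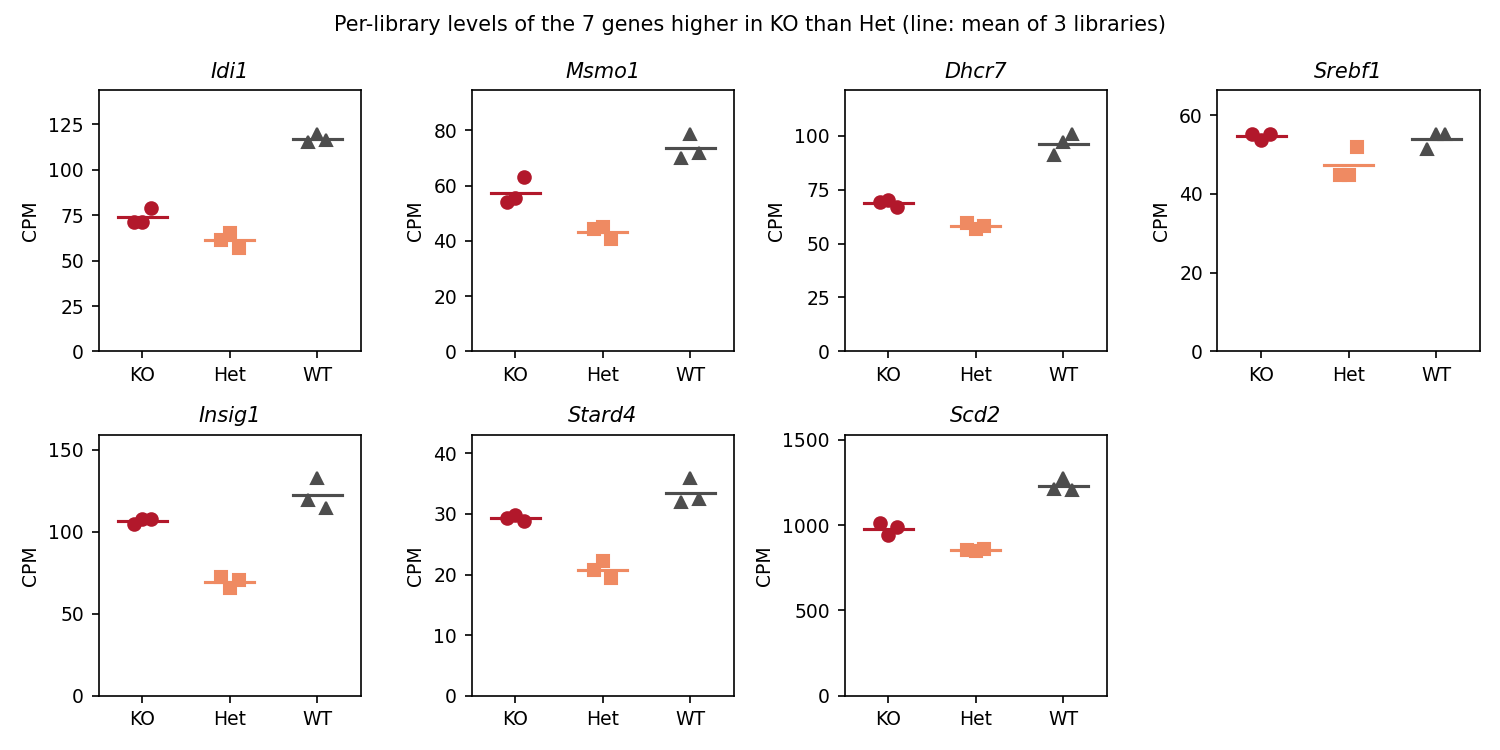
CPM in each of the 3 KO, 3 Het and 3 WT libraries (points) with group means (lines) for the 7 genes that were higher in KO than in Het. For Idi1, Msmo1, Dhcr7, Insig1, Stard4 and Scd2 the 3 genotypes do not overlap, with Het lowest and WT highest.

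In 7 of the 28 genes (Dhcr7, Idi1, Insig1, Msmo1, Scd2, Sqle and Stard4) all 3 genotypes were separate, with WT highest, KO between and Het lowest. Over all genes 301 of 15271 (1.97%) had this order without overlap. The order with KO lowest and Het between, which follows the number of mutant alleles, held without overlap for 1 gene, Mvk, against 5.25% of all genes. By means alone, 15 of the 28 genes had KO between a lower Het and a higher WT, and 8 had KO lowest with Het between. The shares of all genes with these orders of means were not counted, so whether they are unusual is not known. The Het libraries also differed from KO and WT at Hprt, a purine salvage gene singled out after its values were seen, with 36.1, 35.1 and 36.6 CPM in KO, 1.07, 0.711 and 1.66 CPM in Het, and 41.5, 42.8 and 42.6 CPM in WT. The labels give the same strain for all 3 groups, and whether the Het animals differ from the others in origin was not tested. The part of the Hprt difference in the order of the lipid genes was not tested either.

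Genes that surround the pathway but are not among the 28 were read from 3 further lists. Of 10 tested sterol and isoprenoid enzymes, 4 were lower and 1 higher in KO, 5 lower and 1 higher in Het, and 2 were higher in KO than in Het. Lower calls were thus 40% of the list in KO and 50% in Het, against 26.3% and 23.4% of all genes. In KO against Het, the higher calls were 20% of this list of only 10, against 8.3% of all genes. Ggps1, which makes geranylgeranyl diphosphate, was the 1 enzyme of this list higher in both, at 0.29 in KO (adjusted p = 0.014) and 0.38 in Het (adjusted p = 0.0035). Pdss2, a subunit of the synthase that makes the coenzyme Q side chain, was lower in KO (-0.28, adjusted p = 0.017), which did not pass without KO replicate 3 (adjusted p = 0.052) or WT replicate 3 (adjusted p = 0.067), and it did not pass in Het (-0.16, adjusted p = 0.18).

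Of 24 tested genes of sterol uptake and transport, 10 were lower and 7 higher in KO, 9 lower and 7 higher in Het, and 3 were higher and 3 lower in KO than in Het. Against WT, higher calls made up 29.2% of the list in KO and 29.2% in Het, near the 26.5% and 22.5% of all genes. Lower calls made up 41.7% in KO and 37.5% in Het, against 26.3% and 23.4%. In KO against Het, 12.5% of the list was higher and 12.5% lower, near the 8.3% and 8.44% of all genes. Abcg1, a cholesterol exporter that is a target of liver X receptors, had 30.1, 31.5 and 23.8 CPM in KO, 19.1, 16.2 and 14.5 CPM in Het, and 17, 14.1 and 15 CPM in WT, and was 1.85-fold higher in KO than in WT (adjusted p = 2.1e-05) with no call in Het (0.11, adjusted p = 0.5). Apod, a lipocalin that binds lipids, was 2.91-fold higher in KO and 2.79-fold higher in Het. Gramd1a, which carries sterol from the plasma membrane to the endoplasmic reticulum, was 1.54-fold higher in KO and 1.32-fold higher in Het. Cyp46a1, the neuronal cholesterol 24-hydroxylase that clears cholesterol from brain, was 1.8-fold lower in KO (adjusted p = 3.9e-07) and 1.45-fold lower in Het (adjusted p = 7.7e-05). Lcat, the enzyme that esterifies cholesterol on lipoproteins, was 2.5-fold lower in KO (adjusted p = 0.0037) at 11 to 62 counts per library, with no call in Het (-0.72, adjusted p = 0.08).

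Of 14 genes that control SREBP processing or sterol sensing, 2 were lower and 4 higher in KO, and 1 was lower and 3 higher in Het. The higher calls, 28.6% in KO and 21.4% in Het, were near the 26.5% and 22.5% of all genes, and the lower calls, 14.3% in KO and 7.14% in Het, were below the 26.3% and 23.4% of all genes. Pgrmc1, a haem-binding protein of the endoplasmic reticulum, had 401.9, 396.2 and 366.3 CPM in KO, 291.5, 320 and 305.2 CPM in Het, and 326.8, 306.1 and 316.1 CPM in WT. It was higher in KO than in WT (0.30, adjusted p = 3.1e-04) and than in Het (0.34, adjusted p = 4.1e-04), while Het and WT overlapped (-0.05, adjusted p = 0.5). Nr1h2, the liver X receptor beta, was higher in KO (0.31, adjusted p = 0.0032) without a call in Het (0.13, adjusted p = 0.2), and Erlin2, a sterol-sensing adaptor of the endoplasmic reticulum, was 1.17-fold higher in KO and 1.17-fold higher in Het. Erlin1 was lower in KO (-0.26, adjusted p = 0.024), a call that ended when KO replicate 1 or 2 or WT replicate 2 was left out and with library totals alone (adjusted p of 0.12, 0.10, 0.07 and 0.062).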

How the data were processed

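Raw counts of reads per gene were deposited by the authors for 9 libraries, together with FPKM values. These equal the counts divided by library total and by a fixed factor for each gene, which can differ from the annotated exon length. The submitters' processing notes name DESeq 1.10.1, HTSeq 0.6.1, TopHat2 2.0.9, Bowtie2 2.0.6 and build mm10, with no roles. The labels' protocols give total RNA and an NEBNext Ultra kit, whereas how strand and multi-gene reads were treated is not stated in the sources used here. Symbols and positions came from GENCODE M21.

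Counts were fitted with edgeR 4.0.16 in R 4.3.3 (filterByExpr with minimum count 10, TMM factors, a robust quasi-likelihood fit with genotype as the only factor over all 9 libraries, leaving 6 residual degrees of freedom) and tested with Benjamini-Hochberg adjustment over 15271 genes at 0.05. CPM uses TMM-scaled library sizes. SE is the log2 fold change divided by the square root of F, and 95% intervals use SE and 6 degrees of freedom. Words are 31-base stretches of transcripts. Alternatives were other scaling factors, filters, DESeq2 1.42.0, only the genotypes compared, limma 3.58.1 on log2(FPKM + 1) and log2(FPKM + 0.1), a replicate block, a fold of at least 1.5, members sharing no word, and each library left out. A limit of 5% shared words was chosen after seeing the data. The procedure was tested on simulated counts in which a small set of genes changed, in KO alone. In these data 52.8% of all genes were called in KO against WT, so that test cannot vouch for the scaling or the calls here.

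The 28 members and all lists were chosen with earlier results of these data known. All 28 are named. From the other lists up to 3 called genes per direction with the largest fold in KO against WT were taken, some of which are not reported here, and markers are given as counts, sums and up to 2 genes. Hprt was chosen after its values were seen. Figures used Python 3.11.15 and matplotlib 3.10.9.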

Additional observations from a re-analysis of the deposited data

How the results depend on the processing

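Of the 28 genes, 17 to 20 were lower in KO than in WT and 17 to 21 lower in Het than in WT when any 1 library was left out, and 5 to 8 were higher in KO than in Het. At a fold of at least 1.5 the counts were 6 lower and 0 higher (KO against WT), 8 lower (Het against WT) and 1 higher (KO against Het), and over all genes 1650 higher and 1770 lower, 1147 higher and 1371 lower, and 303 higher and 432 lower. Among the 8 members sharing no word with another gene and overlapping none, 5 were lower in KO, 5 lower in Het and 0 higher in KO than in Het, with medians of -0.35 (KO against WT) and -0.04 (KO against Het, a change of sign). With members at 5% of shared words or less, a limit chosen after seeing the data, the KO against WT median was -0.27. That median was -0.26 with library totals alone and under limma with either pseudocount, and -0.33 to -0.28 with 1 library left out. The Het against WT median was -0.34 under limma on log2(FPKM + 1), and the KO against Het median 0.05 to 0.09 with 1 library left out. In Het against WT, 1 member (Insig2) was higher with upper-quartile factors, library totals alone, no filter, limma with either pseudocount, and without Het replicate 2 or 3. Over all genes, leaving out 1 library gave 688 to 1273 higher and 738 to 1312 lower in KO than in Het, against 1267 higher and 1289 lower with all 9. Without KO replicate 1 the counts were 729 and 738, without KO replicate 2 688 and 744, and without Het replicate 2 787 were higher. The cause of these differences was not tested, beyond the fewer members or genes that a limit leaves.

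Signs changed in these values, none of which had passed the test with all libraries. In KO against WT, leaving out 1 library gave -0.07 to 0.17 for Acat2 and -0.02 to 0.04 for Srebf1. In Het against WT it gave -0.21 to 0.02 for Acat2, -0.22 to 0.08 for Sc5d, -0.01 to 0.12 for Abca1 and -0.03 to 0.02 for Erlin1. In KO against Het it gave -0.08 to 0.05 for Hmgcs1, -0.02 to 0.04 for Fdps, -0.03 to 0.05 for Tm7sf2, -0.10 to 0.10 for Apoe, -0.19 to 0.02 for Ggps1 and -0.02 to 0.16 for Apod. With library totals alone, Sc5d was at 0.0054, Pgrmc1 at 0.00019 and Erlin1 at 0.03 in Het, and Fdps at -0.00037 and Tm7sf2 at -0.00017 in KO against Het. Upper-quartile factors gave 0.02 for Erlin1 in Het. Under limma on log2(FPKM + 1) and log2(FPKM + 0.1), Erlin1 was at 0.03 and Pgrmc1 at 0.00035 in Het with both pseudocounts, Fdps at -0.00032 with both, and Tm7sf2 at -0.0013 and -0.0014 in KO against Het.

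Same-numbered libraries did not deviate together over all tested genes (correlations of -0.11 to 0.084), and the numbers were treated as names. These correlations cannot show a litter or batch shared under other numbers, or one that touches few genes. With a replicate block, 19 members were lower and 1 higher in KO, 20 lower in Het and 6 higher in KO than in Het, and over all genes 3908 higher and 3867 lower, 3259 higher and 3382 lower, and 1076 higher and 1090 lower in the same order of comparisons. Genes under 100 counts in a library are the least precise.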

Other observations

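Of 30 tested fatty acid genes outside the 28, 12 were lower and 8 higher in KO than in WT, 13 lower and 6 higher in Het than in WT, and 5 were higher and 1 lower in KO than in Het. Against WT, the higher calls were 26.7% in KO and 20% in Het, near the 26.5% and 22.5% of all genes. The lower calls were 40% in KO and 43.3% in Het, against 26.3% and 23.4%. In KO against Het, 16.7% of the list was higher and 3.33% lower, against 8.3% and 8.44% of all genes. Lpin1, a phosphatidate phosphatase on the path to triglycerides and phospholipids, had 29.7, 28.8 and 30.1 CPM in KO, 23.7, 20.9 and 22.1 CPM in Het, and 11.9, 11.4 and 11.2 CPM in WT. The 3 genotypes did not overlap, and Lpin1 was 2.57-fold higher in KO (adjusted p = 4.7e-10) and 1.93-fold higher in Het (adjusted p = 7.2e-08) by edgeR's quasi-likelihood test. Thrsp, a nuclear protein linked to fatty acid synthesis in liver, was at 13.5, 12.1 and 9.79 CPM in KO, 8.9, 8.32 and 8.92 CPM in Het, and 4.56, 3.16 and 2.11 CPM in WT, and was 3.61-fold higher in KO (adjusted p = 5.9e-06) and 2.66-fold higher in Het (adjusted p = 1.1e-04).

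Scd1, a desaturase that shares 8.18% of its words with other genes, was 1.44-fold lower in KO (adjusted p = 3.9e-05) and 1.56-fold lower in Het (adjusted p = 7.6e-06). Me1, which makes NADPH for lipid synthesis, had 30.4, 30.2 and 38.5 CPM in KO, 42.2, 43.9 and 30.7 CPM in Het, and 53.9, 54.1 and 57.3 CPM in WT, with log2 fold changes of -0.74 in KO (adjusted p = 7.3e-04) and -0.50 in Het (adjusted p = 0.0095), and 36.9% of its words are shared. Acacb, an acetyl-CoA carboxylase, was 1.51-fold higher in KO (adjusted p = 0.023) and 1.91-fold higher in Het (adjusted p = 0.0014), and the KO call ended without KO replicate 1 or 3 or WT replicate 1 or 2 (adjusted p of 0.062, 0.068, 0.084 and 0.077). Elovl7, an elongase of long fatty acids, was 2.16-fold lower in KO (adjusted p = 0.004) at 20 to 57 counts per library, with no call in Het (-0.26, adjusted p = 0.46).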
